A study of Mus musculus with 12 samples.

Results

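The cytosolic ribosomal protein genes of the mouse were followed through 12 RNA-seq libraries of 4T1 cells. They were taken by gene symbol: every row of the count table named Rpl or Rps with a number (and at most a letter ending such as a, x or l), the stalk genes Rplp0, Rplp1 and Rplp2, and Rpsa. Of the 31017 symbols in the table, 83 fitted these names. Rpl10l, Rpl39l and Rpl3l had 0 counts in all 12 libraries, and the other 80 reached a CPM (counts scaled to a common library size) of 1 in at least 3 libraries and are the genes described here. Of these, 48 belong to the large ribosomal subunit and 32 to the small subunit, and all 80 entered the tests of differential expression, which covered 12079 genes.

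Ribosomal proteins are made in the cytoplasm, and most are carried into the nucleolus and built into a subunit on ribosomal RNA. The cell needs nearly all of the ribosomal proteins in equal numbers. Their genes are scattered over the genome, each under its own promoter, and their messenger RNAs are short, abundant and begin with a run of pyrimidines, the terminal oligopyrimidine (TOP) motif, through which the kinase mTORC1 controls their translation. In tumour cells their combined level is often read as a measure of growth capacity, with the transcription factor Myc and the mTORC1 pathway as the best known regulators.

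4T1 is a mouse mammary carcinoma line. Cells nucleofected with Cas9 and a control guide (control) or an ETV4 guide (Etv4_KO) were embedded at 100000 cells per ml in 80 µl drops of collagen I and cultured in medium with 2% serum. Both genotypes were also grown with 25 ng/ml FGF10 and 40 ng/ml FGF2 (control_FGF and Etv4_KO_FGF). For the FGF experiments, a first day in medium with more serum, already containing the factors, preceded 4 days with FGF in 2% serum. A culture of 4 days in 2% serum is recorded for the groups without FGF as well. Each of the 4 groups had 3 libraries. All 12 were made from polyA RNA with a stranded kit after the gels had been digested with collagenase. The collagen was 1.2 or 2.4 mg/ml, with no statement of which library had which. All 6 Etv4_KO libraries carry a tag, C39, whose meaning is not given, and no label states if the edited cells were pooled or cloned; if they were 1 clone, clone and genotype cannot be told apart. It is also not stated that the replicates were separate cultures, so the p-values below measure the spread between libraries, which may be technical. ETV4 is a transcription factor of the ETS family that acts downstream of FGF receptors.

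Library totals ran from 18229429 to 23193244 counts. Etv4, the targeted gene, measured 168, 162 and 167 CPM in control, 116, 159 and 116 in Etv4_KO, 154, 173 and 167 in control_FGF and 115, 119.5 and 113 in Etv4_KO_FGF. Its log2 fold change was -0.35 without FGF (edgeR adjusted p = 0.0173) and -0.51 with FGF (adjusted p = 0.00204). The library labelled Etv4_KO replicate 2, at 159 CPM, lay close to the control libraries, and without it the log2 fold change without FGF was -0.51; counts over the whole gene do not show if the coding sequence was edited. Of 8 mammary epithelial markers 7 reached 1 CPM, with a summed level of 3896 to 5791 CPM, and Krt5 had 0 counts. Of 6 fibroblast markers and of 6 leukocyte markers only Pdgfra and Cd68 reached 1 CPM, while Dcn, Lum, Adgre1 and Cd3e had 0 counts, and no endothelial or erythroid marker reached 1 CPM. Some of these markers differed between the genotypes: of the 7 epithelial markers tested 1 was higher and 3 were lower both without and with FGF (edgeR adjusted p under 0.05), and 1 and 4, then 1 and 6, when Etv4_KO replicate 2 was left out. Krt19 rose by 1.41 and 0.91 on the log2 scale without and with FGF, and Epcam fell by 0.43 and 0.42. Krt14 was lower in both, with log2 fold changes of -0.99 and -1.63. Cdh1 fell by 0.46 without FGF and Krt8 by 0.43 with FGF. Cd68 rose by 0.47 without FGF (adjusted p = 0.0411, or 0.0757 without Etv4_KO replicate 2) and Pdgfra by 0.51 with FGF (adjusted p = 0.0353). Their part in the results below was not tested.

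Ribosomal protein genes took between 5.40% and 7.68% of all counts in a library. In control the share was 5.55%, 5.80% and 6.19%, and in Etv4_KO it was 5.67%, 7.68% and 5.93%. With FGF it was 5.82%, 6.58% and 5.89% in control_FGF and 5.40%, 5.52% and 5.59% in Etv4_KO_FGF. One library, Etv4_KO replicate 2, stood above all others, and replicate 2 of control_FGF was the next highest, while the 3 Etv4_KO_FGF libraries were close together and all below the 3 control_FGF libraries. Genes of the mitochondrial genome lay the other way in the FGF groups, at 0.883%, 0.866% and 0.891% of counts in control_FGF and 1.08%, 1.05% and 1.31% in Etv4_KO_FGF with no overlap, and their part was not tested. Without the 2 highest libraries the ribosomal protein share lay between 5.40% and 6.19% in the other 10 libraries. In bulk RNA, fewer cells of a kind and less RNA per cell cannot be told apart, and here a share says nothing of the amount of RNA per cell.

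The mean share was 6.43% ± 1.09 (SD, n = 3) in Etv4_KO and 5.85% ± 0.323 (SD, n = 3) in control, a difference of 0.578 percentage points (exact two-sided permutation p = 0.6). Leaving out Etv4_KO replicate 2 turned the difference to -0.0459 percentage points, and leaving out replicate 1 raised it to 0.955. With FGF the mean was 5.50% ± 0.0964 (SD, n = 3) in Etv4_KO_FGF and 6.10% ± 0.421 (SD, n = 3) in control_FGF, a difference of -0.594 percentage points (exact permutation p = 0.1, the smallest that 3 against 3 libraries allow), or -0.351 without control_FGF replicate 2. In control cells the share was 0.247 percentage points higher with FGF (exact permutation p = 0.5), and 0.00462 higher without control_FGF replicate 2. In Etv4_KO cells the difference with FGF was -0.925 percentage points (exact permutation p = 0.1), and -0.301 without the pair of high libraries. Counts of the large subunit's genes divided by those of the small subunit's genes gave 1.44 to 1.49 in every library, with 1.48 in Etv4_KO replicate 2.

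**Figure D1:**
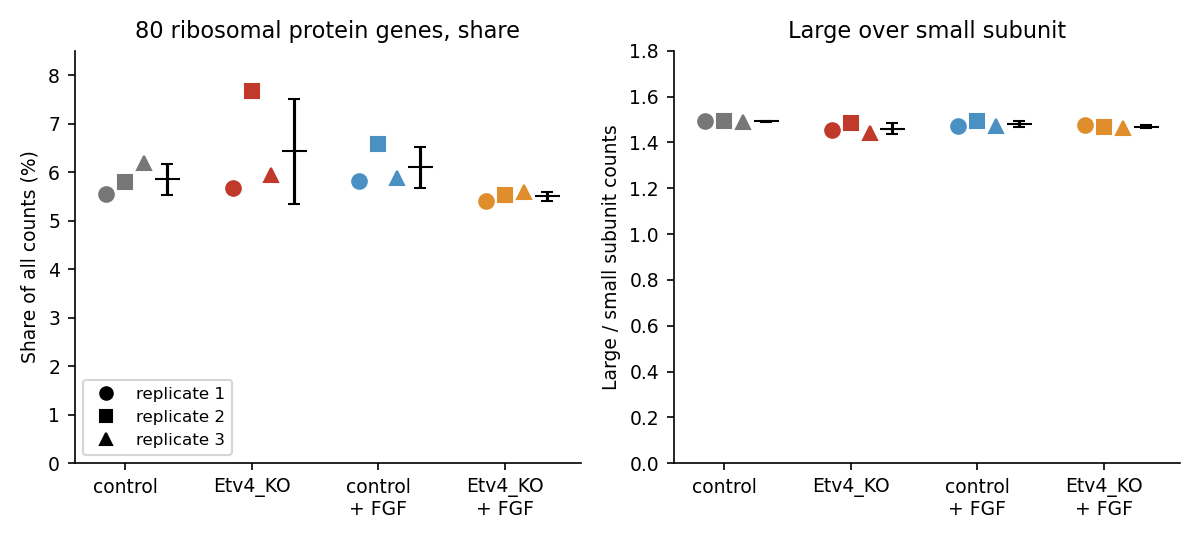
Share of all counts taken by the 80 ribosomal protein genes (left, %) and the ratio of large to small subunit counts (right) in each of 12 libraries, by group and replicate; the bar beside each group is the mean with the SD of 3 libraries. Etv4_KO replicate 2 has 7.68%, the other 11 libraries 5.40% to 6.58%, and the ratio stays between 1.44 and 1.49.

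The high share of Etv4_KO replicate 2 was spread over the whole family. Measured as log2 CPM against the mean of replicates 1 and 3 of its group, all 80 members were higher in this library, by 0.10 (Rps27a) to 0.98 (Rpl41), with a median of 0.50; the median over the other 11999 genes tested was 0.07. For 67 of the 80 it was the highest of the 12 libraries, a count not made over all genes. In control_FGF replicate 2, 79 of 80 members were above the mean of the other replicates, with a median of 0.20. Of the other genes 55.3% were above in Etv4_KO replicate 2 and 50.1% in control_FGF replicate 2. Family-wide shifts were also seen elsewhere. In control replicate 3 all 80 members were above (median 0.16), against 50.1% of other genes. In Etv4_KO replicate 1, set against a mean that includes replicate 2, 0 of 80 were above (median -0.32), against 45.9%. In the 80 members the upward deviation of Etv4_KO replicate 2 ran with that of control_FGF replicate 2 (Pearson r = 0.67 across genes, which are not independent), and with the GC content of the exons (Spearman rho = 0.55), but hardly with the length of the principal transcript (rho = -0.09). The members are short: their principal transcripts have a median of 768 bases, against 2868 in other tested genes.

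Rpl41, which codes for the smallest ribosomal protein, deviated most. It measured 454, 524 and 648 CPM in control, 480.5, 1093 and 636 in Etv4_KO, 493, 703 and 509 in control_FGF, and 501, 573 and 632 in Etv4_KO_FGF. Rps29, a zinc-finger protein of the small subunit, measured 59.1, 116 and 72.9 CPM in Etv4_KO against 47.4, 55.1 and 81.6 in control. Rps28, another small subunit protein, measured 263, 541 and 365 CPM against 223, 261 and 347. For all 3 genes the groups overlapped, and none was called in any of the 5 comparisons. Genes of 2 other lists were high in the same library: nuclear-encoded respiratory chain genes took 1.19% of its counts, against 0.863% to 1.02% elsewhere, and mitochondrial ribosomal protein genes took 0.393%, against 0.299% to 0.352%. The results below are given with and without this library where it changes a call; what sets it apart was not tested.

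**Figure D2:**
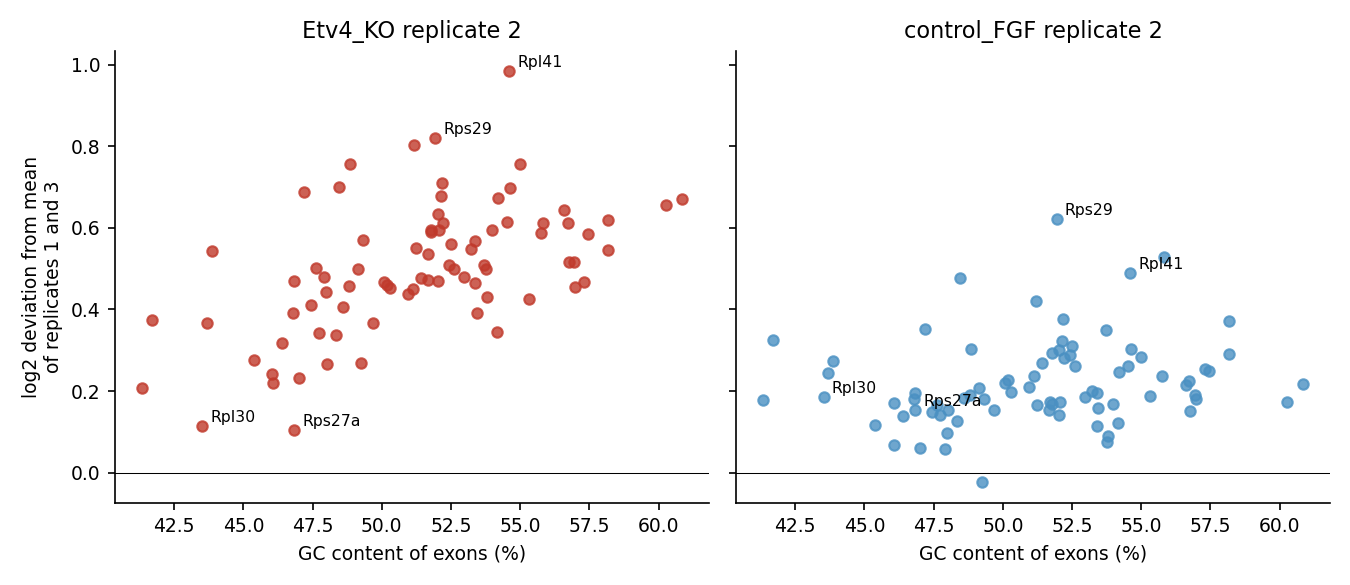
Deviation of each of the 80 members in replicate 2 from the mean of replicates 1 and 3 (log2 CPM, vertical axis) against the GC content of its exons (%, horizontal axis), for Etv4_KO (left) and control_FGF (right); each point is 1 gene. In Etv4_KO replicate 2 every point lies above 0, from 0.10 to 0.98, and 79 of 80 do in control_FGF replicate 2.

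Per length the members differed widely in level. Divided by the length of the principal transcript, the mean over the 12 libraries ran from 59.2 CPM per kb (Rpl13a) to 3691 CPM per kb (Rplp1). The 5 highest were Rplp1, Rps15 (2432 CPM per kb), Rps26 (1878), Rps18 (1837) and Rpl13 (1788). The 5 lowest were Rpl13a, Rpl26 (61.3), Rpl7l1 (78.9), Rps15a (81.1) and Rps20 (113). These values depend on the transcript chosen: the annotated principal transcripts of Rps15a and Rps20 are 5130 and 3706 bases long, far above the median of the family. They also depend on copies: 71 of the 80 members share at least 100 bases at 98% identity or more with another annotated gene, most often a pseudogene, with 17 such copies for Rpl21 and 11 for Rps2. The authors' treatment of reads that fit several places is unknown here, and the level of such genes is uncertain. Over the 80 members, level per kb and number of copies had a Pearson r of 0.04.

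Without FGF, 26 of the 80 members were higher in Etv4_KO than in control at an edgeR adjusted p under 0.05, and 1, Rps27a, was lower; over all genes tested the shares called were 22.5% higher and 23.3% lower. The members' median log2 fold change was 0.26, against -0.01 over all genes. The 26 included 14 of the 48 large subunit and 12 of the 32 small subunit members. The lead of higher members rested on Etv4_KO replicate 2: without it 22 were higher and 14 lower (26.3% and 28.2% of all genes), and the median was 0.06. Of the 26 members called higher, 22 remained so without that library. The count of higher members was also 44 without Etv4_KO replicate 1 (23.1% of all genes), 12 without control replicate 1 (17.9%) and 13 without control replicate 2 (17.8%). Scaled by library totals alone, which moved the median of all genes to -0.13, the calls were 15 higher and 7 lower (15.9% and 31.1% of all genes), and the members' median was 0.13.

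Rps2 rose most. It codes for a core protein of the small subunit near the messenger RNA entry channel and lies at chr17:24718116-24721929 (mm10, plus strand). It measured 305, 316 and 358 CPM in control and 533, 838 and 563 in Etv4_KO; the groups did not overlap. Its log2 fold change was 0.98 ± 0.14 (SE; edgeR adjusted p = 0.000111), and 0.75 ± 0.07 without Etv4_KO replicate 2. Rps2 has 11 near-identical copies, so part of this difference may fall on reads it shares with them, which was not tested.

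Rpl13a, a large subunit protein that also works outside the ribosome in silencing inflammatory messenger RNAs, lies at chr7:45125558-45128761 (minus strand). It measured 47.9, 50.2 and 49.2 CPM in control and 74.9, 97.1 and 69.5 in Etv4_KO. All 3 Etv4_KO libraries were above all control libraries, with a log2 fold change of 0.71 ± 0.11 (edgeR adjusted p = 0.000249). Rpl13a has 2 near-identical copies, 1 of them the protein-coding Gm45713, and the part of reads shared with them was not tested.

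Of the stalk proteins, which recruit elongation factors to the large subunit, Rplp0 is the anchor and Rplp1 and Rplp2 bind to it as dimers. Rplp0 (chr5:115559467-115563727, plus strand) measured 1753, 1794 and 1892 CPM in control and 2319, 3505 and 2588 in Etv4_KO, with a log2 fold change of 0.63 ± 0.12 (edgeR adjusted p = 0.000837). Rplp2 measured 284, 318 and 353 CPM against 341, 512 and 379, a log2 fold change of 0.37 (adjusted p = 0.0423). This call was lost without Etv4_KO replicate 2 (adjusted p = 0.0719), control replicate 1 (0.157) or control replicate 2 (0.0971), and at 0.0515 to 0.0562 without control_FGF replicate 1 or 3 or any 1 of the Etv4_KO_FGF libraries. Rplp1, the most abundant member per length, measured 1654, 1734 and 1959 CPM against 1829, 2524 and 1823 and was not called (log2 fold change 0.21, adjusted p = 0.176). All Etv4_KO libraries were above all control libraries for Rplp0, whereas the groups overlapped for Rplp1 and Rplp2.

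Rpl5 and Rpl11 bind the 5S ribosomal RNA and, when ribosome assembly fails, hold back Mdm2 and so stabilise p53. Rpl5 measured 953, 1009.8 and 1063 CPM in control and 1104, 1629 and 1133 in Etv4_KO, with no overlap and a log2 fold change of 0.35 (edgeR adjusted p = 0.0369). The call was lost without Etv4_KO replicate 2 (0.15, adjusted p = 0.0501) or control replicate 1 (0.117), 2 (0.0865) or 3 (0.0552), and at 0.0506 to 0.0509 without any 1 of the Etv4_KO_FGF libraries. Rpl11 measured 516, 551 and 589.9 CPM against 484, 737 and 511, and its groups overlapped (0.06, adjusted p = 0.716). Without Etv4_KO replicate 2 Rpl11 was lower (-0.15, adjusted p = 0.0395). The genes of these partners lie on chromosomes 5 and 4.

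Of the small subunit proteins with known further roles, Rpsa, which also serves as a laminin receptor precursor, measured 2153, 2058 and 2131 CPM in control and 2728, 3716 and 2658 in Etv4_KO. Its groups did not overlap, with a log2 fold change of 0.52 ± 0.11 (edgeR adjusted p = 0.00139). Rps19, mutated in many patients with Diamond-Blackfan anaemia, measured 306, 337 and 359 CPM against 389.6, 636 and 443 (0.55 ± 0.14, adjusted p = 0.00721). Rps18, at the head of the small subunit, measured 862, 863 and 911 CPM against 1089, 1581 and 1146 (0.53 ± 0.11, adjusted p = 0.00156). Both rose with no overlap between the groups.

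Rps6, whose protein is the classical substrate of S6 kinase below mTORC1, measured 693, 714 and 759 CPM in control and 686, 1032 and 726 in Etv4_KO. Etv4_KO replicate 3 lay within the control range and replicate 1 just below it, and the gene was not called (0.17, edgeR adjusted p = 0.267). Rps3, which also acts in DNA repair, measured 1015, 1043 and 1201 CPM against 1142, 2011 and 1241 and was not called (0.43, adjusted p = 0.0521). Rpl10, needed for the last steps of large subunit maturation, measured 954, 960.3 and 992 CPM against 1121, 1556 and 1112, rose by 0.38 (adjusted p = 0.00927) and did not overlap. Rpl30 and Rps13 were called at adjusted p = 0.0498 and 0.047 but lost the call in 15 and 16 of 25 alternative analyses, among them those without control replicate 1 (0.211 and 0.185) or 2 (0.0901 and 0.0731), without Etv4_KO replicate 3 (0.0871 and 0.0533) or without any 1 library with FGF (0.0515 to 0.0676 and 0.0535 to 0.065). Rps13 also lost it without Etv4_KO replicate 2 (0.0625) or control replicate 3 (0.0613).

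Other members called higher included Rps9, Rpl12, Rps10, Rpl15, Rpl9, Rpl21, Rpl18, Rpl7a, Rps21, Rpl6, Rps7 and Rpl7l1.

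Rps27a, which is made as a fusion with ubiquitin and so also supplies free ubiquitin, was the only member called lower without FGF. It lies at chr11:29545846-29548109 (minus strand) and measured 705, 764 and 801 CPM in control and 597, 651 and 615 in Etv4_KO. All 3 Etv4_KO libraries were below all control libraries (log2 fold change -0.29 ± 0.07, edgeR adjusted p = 0.00464). It was also the member least raised in Etv4_KO replicate 2. In all, 26 members had all 3 Etv4_KO libraries above and 1 had all 3 below the control libraries, which among all genes tested held for 25.5% and 28%.

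**Figure D3:**
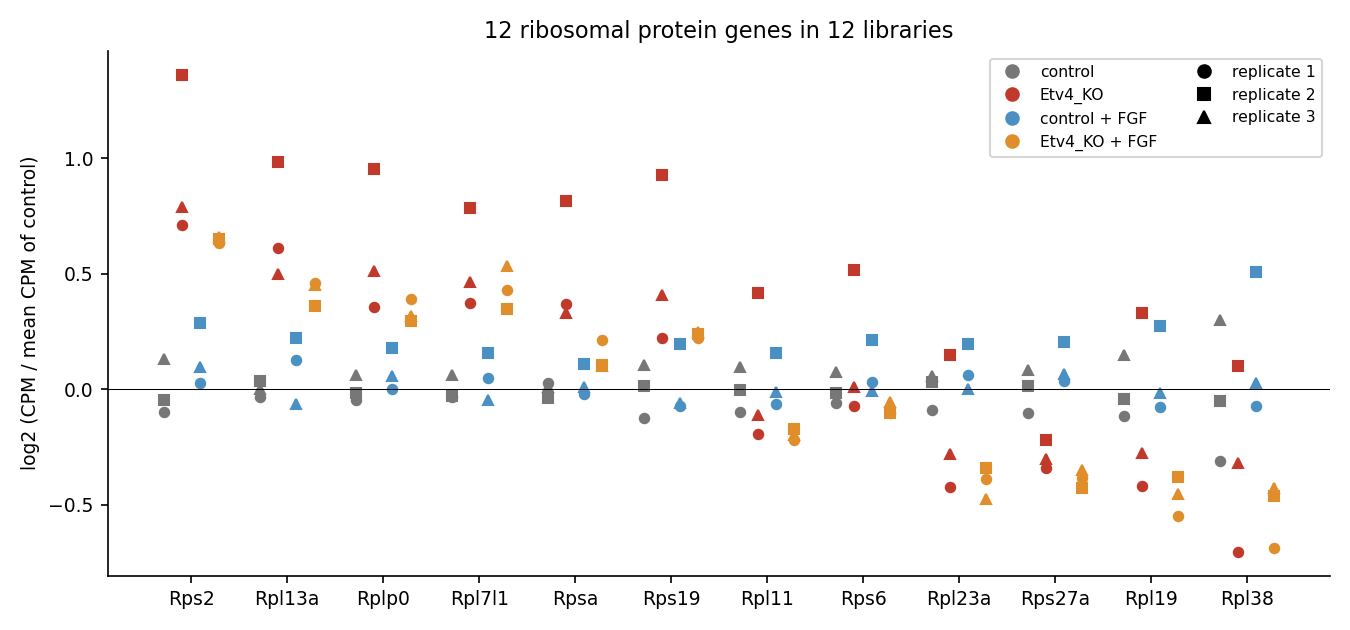
Level of 12 ribosomal protein genes in each of the 12 libraries, as log2 of CPM over the mean CPM of the 3 control libraries (vertical axis); colour gives the group and marker shape the replicate. Rps2, Rpl13a, Rplp0 and Rpl7l1 are above control in all 6 Etv4_KO libraries, Rps27a is below it in all 6, and the red squares of Etv4_KO replicate 2 stand highest of that group for each gene.

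With FGF, 3 of the 80 members were higher in Etv4_KO_FGF than in control_FGF and 12 were lower (edgeR adjusted p under 0.05); of all genes tested 18% were higher and 22.2% lower. The median log2 fold change of the members was -0.07, against -0.01 over all genes, and 54 of the 80 fold changes were negative. The median turned to 0.03 when control_FGF replicate 2 was left out. Of the 12 lower members 8 belong to the large and 4 to the small subunit. These libraries do not include Etv4_KO replicate 2, but the shared estimate of spread does: without it 11 members were higher and 27 lower (28.1% and 30.5% of all genes). The lower count was 5 without Etv4_KO_FGF replicate 1 (18.2% of all genes) and 6 without control_FGF replicate 2 (18.9%). With library totals alone the calls were 2 higher and 23 lower, beside 13.7% and 27.9% of all genes, and the median was -0.15.

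The 3 members that rose were Rps2, Rpl7l1 and Rpl13a, all of which also rose without FGF. Rps2 measured 332, 398 and 348 CPM in control_FGF and 506, 512 and 515 in Etv4_KO_FGF, with a log2 fold change of 0.51 ± 0.14 (edgeR adjusted p = 0.011). Rpl7l1, a paralog of Rpl7 found on precursors of the large subunit, lies at chr17:46773907-46782672 (minus strand) and measured 175, 188 and 164 CPM against 228, 215 and 245 (0.38 ± 0.10, adjusted p = 0.00822). Rpl13a measured 53.6, 57.2 and 46.9 CPM against 67.6, 63.0 and 67.2 (0.33 ± 0.11, adjusted p = 0.0344). In each of the 3 genes the groups did not overlap. The call of Rpl13a was lost in 7 of 25 alternatives, among them those without any 1 of the Etv4_KO_FGF libraries or without control_FGF replicate 1 or 3 (adjusted p up to 0.143).

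Rpl38, which has been tied to the translation of Hox messenger RNAs in the embryo, fell most. It lies at chr11:114668524-114672331 (plus strand) and measured 131, 196 and 141 CPM in control_FGF and 85.7, 99.98 and 102 in Etv4_KO_FGF, with a log2 fold change of -0.70 ± 0.20 (edgeR adjusted p = 0.0153). The groups did not overlap, but the call was lost without control_FGF replicate 2 (adjusted p = 0.0726) or without Etv4_KO_FGF replicate 1 (0.0651). Rpl19, a large subunit protein of the intersubunit bridges, measured 889, 1136 and 927 CPM against 642, 722 and 685 (-0.53 ± 0.16, adjusted p = 0.0188), and lost its call when control_FGF replicate 2 (0.0684) or Etv4_KO_FGF replicate 1 (0.0704) or 3 (0.0531) was left out.

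Rps27a measured 775, 871 and 792 CPM in control_FGF and 579.5, 563 and 593 in Etv4_KO_FGF, and Rpl23a, which lines the exit of the nascent chain tunnel, measured 982, 1079 and 943 CPM against 721, 744 and 679. Both groups were apart for both genes. The log2 fold change was -0.49 ± 0.07 for Rps27a (edgeR adjusted p = 0.000108) and -0.49 ± 0.12 for Rpl23a (adjusted p = 0.00519), and each call held in all 25 alternatives. Rps20 fell by 0.33 on the log2 scale (adjusted p = 0.0278) and kept its call in 20 of 25, losing it without Etv4_KO_FGF replicate 1 (0.0903) or 2 (0.0785) or control_FGF replicate 2 (0.098) or 3 (0.051), or with the correction for length and GC content (0.0574). The other members called lower, outside the rule for named genes and listed for completeness, were Rpl35a, Rpl24, Rpl23, Rpl27, Rps25, Rps3a1 and Rpl4.

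Leaving out Etv4_KO replicate 2 added lower calls without FGF for Rpl38 (log2 fold change -0.50, edgeR adjusted p = 0.00672), Rpl19 (-0.35, adjusted p = 0.0011), Rpl23a (-0.35, adjusted p = 3.61e-05) and Rps20 (-0.20, adjusted p = 0.0222). Of the stalk and 5S particle genes, Rplp1 (-0.23, adjusted p = 0.00243) and Rpl11 (-0.22, adjusted p = 0.00115) were then called lower with FGF, as was Rps6 (-0.17, adjusted p = 0.00715). Rpsa (0.11, adjusted p = 0.036) and Rpl10 (0.11, adjusted p = 0.0203) were then called higher with FGF. None of these 9 calls was made over 12 libraries.

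Rplp0 measured 1815, 2054 and 1887 CPM in control_FGF and 2379, 2228 and 2257 in Etv4_KO_FGF. These groups did not overlap either, but the difference was not called over 12 libraries (log2 fold change 0.25 ± 0.12, edgeR adjusted p = 0.104) and was called without Etv4_KO replicate 2 (adjusted p = 0.00012), whose removal left the fold change at 0.25 and lowered its SE to 0.05. The same held for Rps18 (0.19, adjusted p = 0.189, then 0.000405) and Rps19 (0.21, adjusted p = 0.266, then 0.00755). Of the 80 members 10 had all 3 Etv4_KO_FGF libraries above and 29 had all 3 below the control_FGF libraries, against 29.7% and 31.7% of all genes tested.

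The genotype comparisons without and with FGF share no library. Over the 80 members their log2 fold changes had a Pearson r of 0.93, and of 0.97 without Etv4_KO replicate 2; the points are genes of 1 family and all genes of a comparison share its libraries, so this is a description. In all, 3 members were called higher and 1 lower in both comparisons, and 0 had a call of each sign. With Etv4_KO replicate 2 left out these numbers were 11, 14 and 0. How many of all genes were called in both comparisons was not counted, so these numbers cannot be read as a trait of the family. The interaction, the genotype difference with FGF minus that without, was negative on the log2 scale for all 80 members, with a median of -0.34, yet 0 members passed edgeR's test (smallest adjusted p = 0.474; 10 had an unadjusted p under 0.05; DESeq2 and limma-voom also called 0). With the correction for length and GC content the median was -0.18, with 2 members positive, and -0.17 with the replicate block added. Of all genes 0.0166% had a higher and 0% a lower interaction, and their median was -0.02. Signs and unadjusted p-values under 0.05 were not counted over all genes. When Etv4_KO replicate 2 was left out the members' median was -0.13, and again 0 members passed edgeR's test. Of the members 14 then had an unadjusted p under 0.05. Of all genes 0.719% were then called higher and 0.262% lower. Without control_FGF replicate 2 as well, the median was -0.06, with 13 members positive. There 1 member was called lower (1.18% of all genes higher and 0.541% lower).

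**Figure D4:**
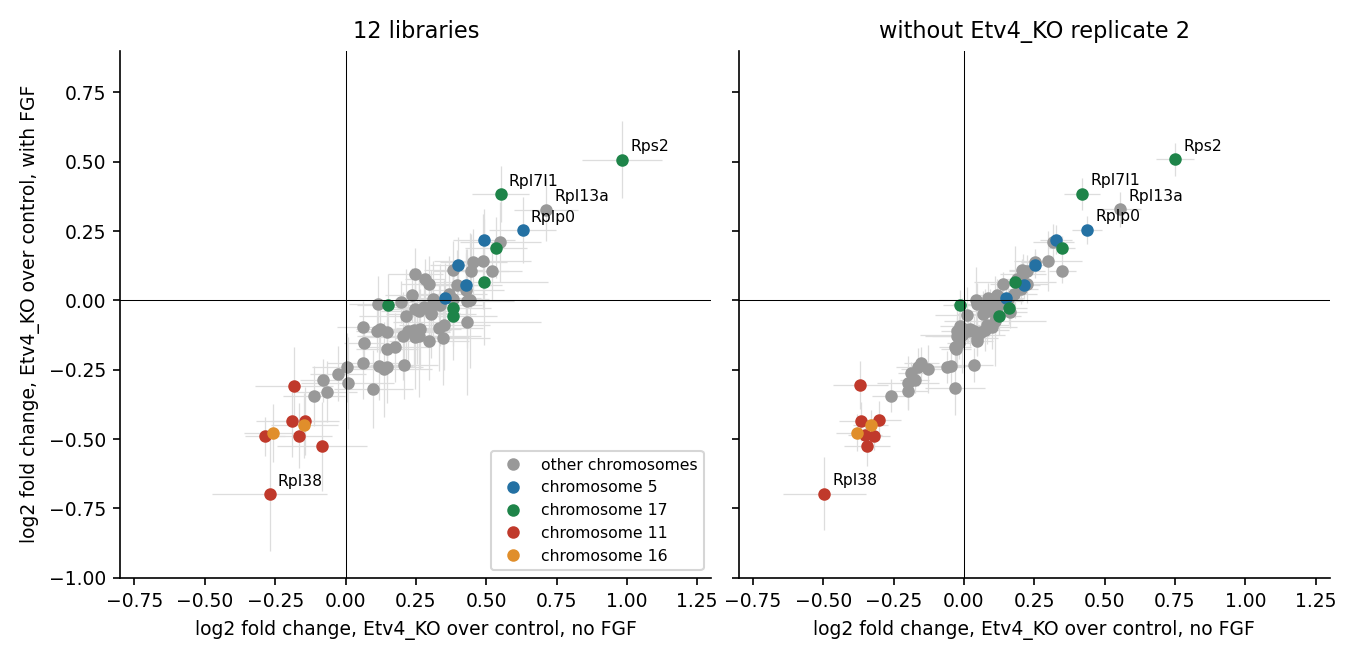
Log2 fold change of Etv4_KO over control without FGF (horizontal axis) and with FGF (vertical axis) for the 80 members, over 12 libraries (left) and without Etv4_KO replicate 2 (right); grey bars are SEs and colours mark members on chromosomes 5, 17, 11 and 16. Members of chromosomes 11 and 16 lie at the low end on both axes, and Rps2 at the high end with 0.98 and 0.51 over 12 libraries.

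The members were also grouped by the chromosome on which they lie, a grouping made after their values were seen. All 7 members on chromosome 11 (Rpl38, Rpl19, Rps27a, Rpl23a, Rpl23, Rpl27 and Rpl26) had negative fold changes in both comparisons, from -0.29 to -0.08 without FGF and from -0.70 to -0.31 with FGF. So did the 2 on chromosome 16 (Rpl35a and Rpl24), with medians of -0.20 and -0.46. Together these 9 genes gave the 1 lower call without FGF and 8 of the 12 with FGF. Without Etv4_KO replicate 2 all 9 were called lower in both comparisons, out of 14 and 27 lower members. At the other end, the 5 members on chromosome 5 (Rplp0, Rpl6, Rpl9, Rpl5 and Rpl21) were all called higher without FGF, as were 4 of the 7 on chromosome 17 and 9 of the 14 on chromosome 7. Without Etv4_KO replicate 2 these counts were 4, 4 and 6. Of all genes 22.5% were called higher without FGF over 12 libraries and 26.3% without that library. Called lower were 23.3% of all genes without FGF and 22.2% with FGF over 12 libraries. Without that library the lower shares were 28.2% and 30.5%. The other genes called on each chromosome were not counted.

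The other genes of chromosomes 11, 16, 5 and 17 had medians of the same sign as the members there, but not of the same size. With FGF the signs were opposite on chromosomes 7 (members -0.005, other genes 0.15), 12, 14, 18 and X. Without FGF they were opposite on chromosomes 1, 3, 4, 6, 8, 9, 10 and 13, with positive medians in the members. On chromosome 11 the 982 other genes tested had a median log2 fold change of -0.37 without and -0.40 with FGF, against -0.18 and -0.49 in the members. On chromosome 16 the medians of 362 genes were -0.40 and -0.37. On chromosome 5 those of 781 genes were 0.23 and 0.21, against 0.43 and 0.13 in the members. On chromosome 17 those of 614 genes were 0.31 and 0.25, against 0.49 and 0.07 in the members. Over the 17 chromosomes with 2 or more members, the members' median and that of the other genes had a Pearson r of 0.94 without FGF and 0.92 with FGF, and of 0.92 without FGF and without Etv4_KO replicate 2. Such a correlation takes no account of an offset between the members and the other genes. Gene by gene, the fold change of the 80 members ran with the median of the other genes on the same chromosome (r = 0.79 in either comparison); points on 1 chromosome share their value on 1 axis, and all share the same libraries. Etv4 itself lies on chromosome 11, at chr11:101769742-101785371. What these chromosome-wide medians come from was not tested.

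**Figure D5:**
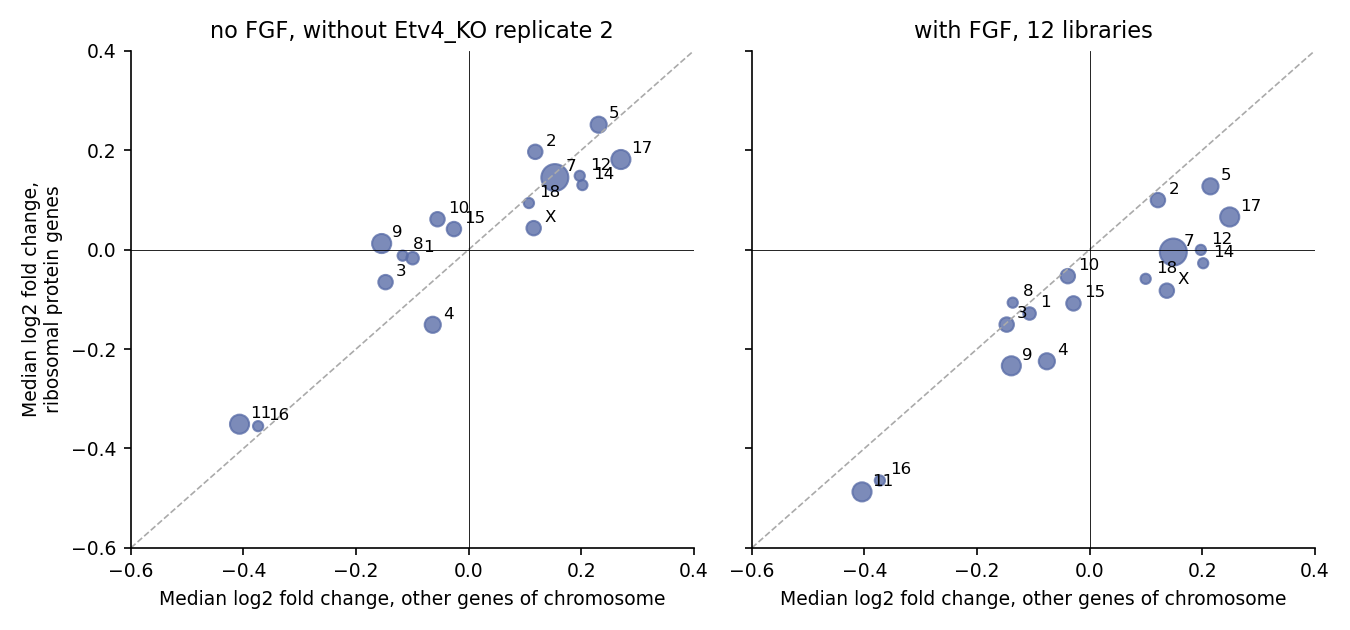
Median log2 fold change of Etv4_KO over control for the ribosomal protein genes of a chromosome (vertical axis) against that of its other tested genes (horizontal axis), for 17 chromosomes with 2 or more members, without FGF and without Etv4_KO replicate 2 (left) and with FGF over 12 libraries (right); numbers name the chromosomes, point area grows with the number of members and the dashed line marks equal values. Chromosomes 11 and 16 stand at the lower left in both panels.

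Some members departed from their chromosome. Rps2 at 0.98 and 0.51 exceeded the chromosome 17 medians, and Rpl13a at 0.71 and 0.33 exceeded those of chromosome 7 (0.21 and 0.15). Rpsa, at 0.52 without FGF, lies on chromosome 9, whose 673 other genes had a median of -0.16. On that chromosome Rpsa was the 1 member called higher without FGF, and the 7 members ranged from -0.11 to 0.52.

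With FGF no member was called in control cells or in Etv4_KO cells over the 12 libraries. In control cells 0 of 80 members were called in either direction (edgeR; 0.257% of all genes were higher and 0.232% lower; 0 members had an unadjusted p under 0.05, and DESeq2 and limma-voom called 0). All 80 fold changes were positive and small, from 0.01 (Rps4x) to 0.20 (Rps27l), with a median of 0.08, or 0.01 without control_FGF replicate 2. The median over all genes was -0.0005 over 12 libraries. Leaving out Etv4_KO replicate 2 again gave 0 calls in control cells (8 members at an unadjusted p under 0.05; 1.59% of all genes higher and 1.22% lower). One member had all control_FGF libraries above all control libraries, against 9.14% of all genes. In Etv4_KO cells again 0 were called (1.47% of all genes higher and 0.944% lower; 21 members had an unadjusted p under 0.05; DESeq2 called 1 lower and limma-voom 0). In Etv4_KO cells 79 of 80 fold changes were negative, with a median of -0.23, against -0.02 over all genes. Neither signs nor unadjusted p-values under 0.05 were counted over all genes, so these member counts cannot be read as a trait of the family. Of the members, 25 had all Etv4_KO_FGF libraries below all Etv4_KO libraries, against 12.5% of all genes. With that library, Etv4_KO replicate 2, left out the median was -0.05, and 0 members were higher and 1, Rpsa, lower (-0.21, edgeR adjusted p = 0.00731; 4.78% of all genes higher and 2.98% lower). Rpsa was not among calls over 12 libraries (-0.38, adjusted p = 0.0815). A single lower member was also called without Etv4_KO replicate 3. Rpsa measured 2449, 2275 and 2266 CPM in Etv4_KO_FGF against 2728, 3716 and 2658 in Etv4_KO, and 2086, 2281 and 2128 in control_FGF. The comparisons with FGF in control and in Etv4_KO cells each use 1 of the groups compared above, and so are not independent of the genotype comparisons.

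Promoter sequences from RefSeq (GRCm38.p6, the same assembly as mm10) were at hand for 60 of the 80 members, as 250 bases before to 50 after each annotated start. The pyrimidine run that makes a TOP messenger RNA was searched as a C followed by at least 6 pyrimidines that began within 20 bases of a start, on the coding strand. It stood in 35 of the 60 members (58.3%) and in 23.9% of 26965 other genes. The letters CCGGAAG, the core bound by ETS factors such as ETV4, were searched on both strands and stood in 25 of the 60 (41.7%), against 9.86% of all other genes and 20.9% of the 9253 other genes tested here. GGGCGG, the Sp1 box, stood in 63.3%, against 70.4% of other genes tested; AAGATGGC, the core of the YY1 motif, in 10.0% against 5.52%; and TATAAA in 11.7% against 8.34%. A gene was counted if any of its starts held the letters.

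Stretches of 4 promoters, from 60 bases before to 20 after the start, show the ETS core (capitals, on either strand) in members that moved in opposite directions; they were chosen after their values were seen. Rpl6 and Rps7 were called higher in Etv4_KO without FGF, and Rpl38 and Rpl19 lower in Etv4_KO_FGF.
Rpl6, chr5:121204441-121204520, plus strand: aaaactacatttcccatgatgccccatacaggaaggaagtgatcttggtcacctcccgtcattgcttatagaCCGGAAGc
Rps7, chr12:28635934-28636013, minus strand: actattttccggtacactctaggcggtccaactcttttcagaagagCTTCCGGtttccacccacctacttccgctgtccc
Rpl38, chr11:114668520-114668599, plus strand: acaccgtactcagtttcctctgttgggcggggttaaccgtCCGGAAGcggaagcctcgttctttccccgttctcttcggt
Rpl19, chr11:98026650-98026729, plus strand: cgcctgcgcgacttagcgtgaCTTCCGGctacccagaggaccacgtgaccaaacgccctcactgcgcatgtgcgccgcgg
The core stood before the annotated start in Rps7, Rpl38 and Rpl19 and just after it in Rpl6. A match is a description of the letters and not of binding.

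In the same way, 4 promoters show the pyrimidine run at the start (capitals) in 2 members that rose without FGF, Rpl13a and Rps18, and in 2 that fell with FGF, Rpl35a and Rpl38.
Rpl13a, chr7:45128726-45128805, minus strand: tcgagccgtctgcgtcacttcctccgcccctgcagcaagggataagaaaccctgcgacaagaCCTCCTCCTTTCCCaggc
Rps18, chr17:33955646-33955725, minus strand: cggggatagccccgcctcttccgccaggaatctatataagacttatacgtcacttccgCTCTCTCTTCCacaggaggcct
Rpl35a, chr16:33056422-33056501, plus strand: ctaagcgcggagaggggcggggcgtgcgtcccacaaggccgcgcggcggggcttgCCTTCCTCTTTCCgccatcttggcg
Rpl38, chr11:114668520-114668599, plus strand: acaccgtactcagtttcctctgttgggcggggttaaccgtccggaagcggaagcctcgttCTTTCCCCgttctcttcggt
The run was 14 bases long in Rpl13a, 11 in Rps18, 13 in Rpl35a and 8 in Rpl38.

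The fold changes of members with and without the ETS core lay close together. Without FGF the median was 0.28 in the 25 members with CCGGAAG and 0.26 in the 35 without. Of these, 9 and 12 were called higher and 0 in each set lower. With FGF the medians were -0.05 and -0.03, with 1 and 2 called higher and 4 and 5 lower. Without Etv4_KO replicate 2 the medians without FGF were 0.07 and 0.08, with 8 and 9 called higher and 6 and 5 lower. Of all genes tested 22.5% were higher and 23.3% lower without FGF, and 18% and 22.2% with FGF. With Etv4_KO replicate 2 left out the shares without FGF were 26.3% and 28.2%. Members with the pyrimidine run had a median of 0.26 without FGF against 0.28 for those without it, and of -0.05 against -0.01 with FGF. In each split the range of the members with the letters covered both positive and negative fold changes.

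Paralogs of ribosomal protein genes can replace their parent in the ribosome of some tissues, and 3 of the members, Rpl7l1, Rpl22l1 and Rps27l, were expressed beside their parent. Rpl7l1, described above, stood at 78.9 CPM per kb, against 835 for Rpl7; Rpl7 measured 924, 942 and 978 CPM in control and 947, 1159 and 969 in Etv4_KO and was not called (log2 fold change 0.11, edgeR adjusted p = 0.247). Rpl7l1 therefore rose without a call for its parent; the difference between them was not tested. Rpl22l1 stood at 232 CPM per kb, against 799.8 for Rpl22, and Rps27l, a p53 target, at 207 against 892 for Rps27. Rpl22l1, Rpl22, Rps27l and Rps27 were not called in either genotype comparison over 12 libraries, with fold changes from -0.32 (Rps27l with FGF, adjusted p = 0.0888) to 0.12. Rps4x, from the X chromosome, measured 1395, 1443 and 1357 CPM in control_FGF and 1264, 1279 and 1230.0 in Etv4_KO_FGF; these did not overlap, and it was not called (-0.15, adjusted p = 0.0993). Over the 11 libraries that leave out Etv4_KO replicate 2, lower calls with FGF were made for Rpl7 (-0.11, edgeR adjusted p = 0.0276), Rpl22 (-0.24, 0.00433), Rps27l (-0.32, 0.0063), Rps27 (-0.30, 0.0121) and Rps4x (-0.15, 0.0019).

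Ribosome components with names of another form were looked at in the same way. Fau codes for a ribosomal protein fused to a ubiquitin-like protein, and Rack1 is a signalling scaffold on the small subunit. Fau measured 417, 449 and 506 CPM in control and 493, 841 and 532 in Etv4_KO (log2 fold change 0.44, edgeR adjusted p = 0.0441), and lost the call without Etv4_KO replicate 2 (0.16, adjusted p = 0.0941). Rack1, on chromosome 11, measured 1153, 1292 and 1199.6 CPM in control_FGF and 868, 854 and 855 in Etv4_KO_FGF, with no overlap and a log2 fold change of -0.50 (adjusted p = 0.0014). Without FGF its control values were 1175, 1149 and 1197 CPM and its Etv4_KO values 906, 1231 and 919; it was not called over 12 libraries (-0.205, adjusted p = 0.108) and was called lower when Etv4_KO replicate 2 was left out (-0.36, adjusted p = 1.09e-06). Rpl36al, a low-level paralog of Rpl36a, measured 1.34, 1.67 and 2.33 CPM in control_FGF and 3.32, 3.70 and 2.42 in Etv4_KO_FGF and was higher in the latter (0.83, adjusted p = 0.0161).

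Lists of genes around the ribosome held calls in both directions, to be read beside the shares of all genes called: 22.5% higher and 23.3% lower without FGF and 18% and 22.2% with FGF over 12 libraries, and 26.3% and 28.2%, then 28.1% and 30.5%, without Etv4_KO replicate 2. Of 23 other TOP messenger RNAs, 6 rose and 2 fell in Etv4_KO without FGF and 2 rose and 2 fell with FGF (medians 0.10 and -0.07). These counts were, without Etv4_KO replicate 2, 4 and 4, then 2 and 11. Pabpc1, the polyA-binding protein, rose by 0.46 (edgeR adjusted p = 0.000215), and Tpt1 by 0.42, whereas Eif4a2, an initiation helicase, fell by 0.51; Npm1, a nucleolar chaperone on chromosome 11, fell by 0.45 with FGF (adjusted p = 0.00063). Of 42 initiation factors 16 rose and 2 fell without FGF and 10 rose and 4 fell with FGF (medians 0.21 and 0.05), and without Etv4_KO replicate 2 these were 19 and 8, then 17 and 15. Among them Eif2s1, the subunit of eIF2 that stress kinases phosphorylate, changed by 0.49 and 0.31. Of 13 elongation and release factors tested 3 rose and 2 fell in each medium, and without Etv4_KO replicate 2 the counts with FGF were 3 and 7. Eef2k, the kinase that inhibits eEF2, rose by 0.59 and 0.56, and Eif5a2, a paralog of the elongation factor eIF5A, fell by 0.80 and 0.74.

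Of 113 ribosome biogenesis genes, 32 rose and 17 fell without FGF (all genes: 22.5% and 23.3%) and 12 rose and 17 fell with FGF (all genes: 18% and 22.2%), with medians of 0.09 and -0.02. With 11 libraries, Etv4_KO replicate 2 left out, these were 28 and 27, then 29 and 33. Las1l, an endonuclease of ribosomal RNA processing, rose by 0.61 without FGF, Tsr1, a late factor of small subunit maturation on chromosome 11, fell by 0.61, and Nol11, a factor of the small subunit processome on chromosome 11, fell by 0.46 and 0.52 on the log2 scale. Of 42 tested regulators in the mTORC1 and Myc list, 12 rose and 6 fell without FGF and 9 rose and 6 fell with FGF, and without Etv4_KO replicate 2 14 rose and 9 fell, then 15 and 9. Rheb, the GTPase that switches on mTORC1, rose by 0.48 and 0.46, and Mxi1, an antagonist of Myc, by 0.51 and 0.43. Mycl, a Myc paralog at a low level, rose by 1.42 with FGF, from a mean of 1.35 CPM in control_FGF to 3.65 in Etv4_KO_FGF (edgeR adjusted p = 0.000141). Ddit4, an inhibitor of mTORC1 induced by stress, had a log2 fold change of -1.07 without FGF (edgeR adjusted p = 7.81e-05), and Nprl3, part of the complex that restrains mTORC1 when amino acids are scarce, -0.69 and -0.63.

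The mitochondrial ribosomal proteins, made from nuclear genes for the other ribosome of the cell, are counted here beside the cytosolic family: 33 of 77 tested rose and 6 fell without FGF, and 3 rose and 16 fell with FGF, with medians of 0.24 and -0.07; the shares of all genes are those given above (22.5% and 23.3%, then 18% and 22.2%). The same counts over those 11 libraries were 27 and 19, then 14 and 32. Mrpl52 had the largest rise of those named, 1.00 (edgeR adjusted p = 0.000664), and Mrpl38, on chromosome 11, fell by 0.78 on the log2 scale with FGF. Of 75 nuclear-encoded respiratory chain genes 29 rose and 0 fell without FGF, and 2 rose and 6 fell with FGF. Over the 11 libraries the numbers were 27 and 4, then 12 and 18.

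The genes whose level went most closely with the summed CPM of the family over the 12 libraries were Mrps21 (r = 0.98), Ndufb7, Gabarap, Cox5b, Pafah1b3, Uqcrc1, Stk11, Snrpd2, Cox4i1 and Dctpp1 (r = 0.97). Over the 11 libraries without Etv4_KO replicate 2 they were Cox5b (r = 0.96), Btf3, Atpif1, Mrps21, Bola3, Gm10260, Cox4i1, Ndufb7, Ndufs4 and Tmem256 (r = 0.90). Mrps21, Ndufb7, Cox5b and Cox4i1 stand in both lists. Gm10260 is a near-identical protein-coding copy of the member Rps18, and the reads of the pair cannot be told apart here. These are descriptions over libraries that share their groups and the high values of Etv4_KO replicate 2.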

How the data were processed

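The deposited table holds whole-number counts of reads per gene symbol for 12 libraries, not normalized. The tools named, per the submitters' processing notes, are STAR 2.7.9a, FastQC 0.11.9, R 4.1.1 and featureCounts, and the builds are mm10 and hg38. Neither the strand setting nor the treatment of reads that fit several places is given in the sources used here. Library totals ran from 18229429 to 23193244 counts.

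The ribosomal protein genes, the lists of other translation genes and the tests were chosen with earlier results of these data known. Counts were tested with edgeR 4.0.16 in R 4.3.3 (quasi-likelihood F-test, two-sided; filterByExpr by group; TMM scaling; 1 mean per group over 12 libraries, 8 residual degrees of freedom), and calls are at an adjusted p (Benjamini-Hochberg) under 0.05 over the 12079 genes tested. Adjusted p-values are from this test unless another tool is named. CPM are scaled by TMM. Deviations of a library use log2(CPM + 0.5). Shares of counts were compared by exact permutation of 3 against 3 libraries. Symbols were matched to GENCODE vM21 models on mm10 (30477 to 1 model, 55 to several, 485 to none). Near-identical copies were found with blastn 2.17.0 as at least 98% identity over at least 100 bases. Promoters came from RefSeq (GRCm38.p6).

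The genes named are the stalk and 5S particle genes, members with textbook roles, paralogs and their parents, the 4 largest called changes in each direction per comparison, the 5 highest and 5 lowest levels per length, and the 5 members that deviate most and least in Etv4_KO replicate 2; in each other list, up to 4 called genes with the smallest adjusted p. Other names were chosen after their values were seen. Some genes are counted but not reported by name here.

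Alternatives were RLE and upper-quartile scaling, library totals alone, TMM without ribosomal protein genes, DESeq2 1.42.0, limma-voom (limma 3.58.1), no filter or CPM of at least 5 in 3 libraries, the compared libraries alone, a replicate block, a correction for length and GC content, and leaving out each library. Leaving out Etv4_KO replicate 2 and control_FGF replicate 2 together was chosen after seeing the data. The fit was tested on simulated data.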

Additional observations from a re-analysis of the deposited data

How the results depend on the processing

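In Etv4_KO against control, 26 members were higher over 12 libraries, 11 with the compared libraries alone, 15 with library totals and 12 to 44 with 1 library left out. Of all genes 22.5%, 15.3%, 15.9% and 17.8% to 26.3% were higher in these settings. The 1 lower member became 2 with CPM of at least 5, DESeq2, upper-quartile scaling or the replicate block, 7 with library totals, 9 with the length and GC correction, 10 with that correction and the replicate block, 16 without both high libraries and 1 to 14 with 1 library left out. Of all genes 23.3% were lower over 12 libraries and 23.7% to 25.2% in the settings with 2. The other shares were, in the same order, 31.1%, 27.1%, 27.4%, 29.8% and 18.9% to 28.2%. With FGF, the 3 higher members became 18 without both high libraries, 9 with the compared libraries alone, 9 with the length and GC correction with or without the replicate block, and 2 to 11 with 1 library left out. Of all genes 18% were higher over 12 libraries, and 28.6%, 27.4%, 22.7% (23.2% with the block) and 14.2% to 28.1% in these settings. The 12 lower members became 21, 26, 23 (library totals), 20 (block and correction) and 5 to 27. Of all genes 22.2% were lower over 12 libraries, and 29.9%, 29.6%, 27.9%, 27.0% and 18.1% to 30.5% in these settings. For FGF in Etv4_KO cells, the 0 lower members became 3 without both high libraries, 2 with the correction with or without the block, 1 with DESeq2 or no filter, and 0 to 1 with 1 library left out (1 without Etv4_KO replicate 2 or 3). Of all genes 0.944% were lower over 12 libraries and 4.92% without both high libraries. The shares were 2.64% (2.58% with the block) with the correction, 2.65% with DESeq2 and 0.716% with no filter. Without Etv4_KO replicate 2 or 3 they were 2.98% and 1.40%. The interaction had 1 lower member without both high libraries (0.541% of all genes). The cause of these moves was not tested.

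The median log2 fold change of Etv4_KO against control, 0.26, was 0.13 with library totals, 0.0677 without both high libraries and 0.0639 to 0.359 with 1 library left out. For FGF in Etv4_KO cells, -0.23 became -0.15 with the length and GC correction (-0.14 with the block added), -0.0525 without both high libraries and ranged from -0.34 to -0.0524. The medians for Etv4_KO_FGF against control_FGF and for FGF in control ranged from -0.12 to 0.03 and from 0.01 to 0.15 with 1 library left out; they were -0.04 and 0.04 with the length and GC correction, with or without the block, and the first was -0.15 with library totals. The interaction's median, -0.34, was -0.18 with that correction and -0.17 with the block added. It was -0.06 without both high libraries, with 13 members positive. With 1 library left out it ranged from -0.44 to -0.13, with -0.22 without control_FGF replicate 2. The difference in share of counts between Etv4_KO and control reversed to -0.0459 percentage points without Etv4_KO replicate 2, alone or with the other high library, and ranged from -0.0459 to 0.955. The difference for FGF in Etv4_KO cells was -0.301 without both high libraries and ranged from -1.30 to -0.301. The others ranged from -0.731 to -0.351 (Etv4_KO_FGF against control_FGF) and from 0.00462 to 0.42 (FGF in control).

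Over all genes, replicate numbers showed no general pairing of the libraries. Of 18 same-numbered pairs 2 had a correlation of deviations over 0.1 (-0.0874 to 0.343), and of 36 differently numbered pairs 4 did (-0.301 to 0.177). Replicate 2 of Etv4_KO and of control_FGF were both high in this family. Whether they shared a batch is not stated and was not tested. With the replicate block, 32 members were higher and 2 lower without FGF and 3 higher and 13 lower with FGF. The shares of all genes in that setting were 22.97% higher and 24.26% lower without FGF, then 18.54% and 22.39% with FGF. With 3 libraries a group, a change that was small beside the spread between libraries could go uncalled.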
